A study of Mus musculus with 16 samples.

Results

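Translation initiation factors were examined in iBMDM cells, mouse macrophages once derived from bone marrow and immortalised for culture. They were taken by symbol: every gene whose name starts with Eif1, Eif2s, Eif2b, Eif3, Eif4, Eif5 or Eif6 and whose mean over all 16 libraries was at least 1 CPM (a count scaled to the library size), without pseudogenes. Of 27179 genes in the count table, 51 have such a symbol and 46 met the rule, and all 46 passed the low-count filter that left 12589 genes for testing. The 46 genes were therefore tested in full. The 5 left out were the pseudogene Eif1-ps3 and the cap-binding relative Eif4e1b, both with 0 reads, and Eif5a2, Eif2s3y and Eif4a3l1 with 51, 10 and 6 reads over all libraries. The lowest members were Eif4ebp3 and Eif3j2, at 7.27 and 7.74 CPM of the library total, and the highest gene left out was Eif5a2 at 0.157 CPM.

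All 4 groups carry the same genotype, labelled MyD88-AGF WT, and each library was made from sorted or sorter-passed cells of this immortalised line. Responders were cells given lipopolysaccharide (LPS, the bacterial glycolipid sensed by TLR4) at 10 ng/mL for 6 h that a sorter collected by high side scatter, and bystanders were cells of the same treatment with low side scatter. The LPS pool was treated alike and run through the sorter with no gate, after the gated cells, and untreated cells got no LPS and no gate. Each group had 4 libraries, and the labels do not say that they came from separate cultures, so p-values measure the spread between these samples only, which may be technical.

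Library totals ran from 15287344 to 25193162 counts. The 5 LPS response genes Tnf, Il1b, Il6, Nos2 and Cxcl10 summed to 11480 to 11860 CPM in responders, 2147 to 2320 CPM in bystanders, 10040 to 10380 CPM in the LPS pool and 115 to 128 CPM in untreated cells. The 8 macrophage markers summed to 4529 to 4581 CPM in responders, 3759 to 3785 CPM in bystanders, 4298 to 4356 CPM in the LPS pool and 3278 to 3309 CPM in untreated cells. Single macrophage markers differed in direction, with 4 higher and 3 lower in responders than in bystanders, beside 34.7% and 35.3% of all genes. Their log2 fold changes in this comparison ran from -1.60 to 1.63. Of the 5 neutrophil markers Ly6g and S100a9 were at 0, and the list, mainly S100a8, summed to 0.856 to 1.40 CPM in responders, 0.115 to 0.349 CPM in bystanders, 0.924 to 1.37 CPM in the LPS pool and 0.180 to 0.250 CPM in untreated cells. Of the lymphocyte markers reported here, Cd3e and Nkg7 were at 0, while Cd79a averaged 0.189 to 0.438 CPM and Ms4a1 0.172 to 0.269 CPM over the 4 groups, both highest in bystanders. The dendritic cell list summed to 49.4 to 55.2 CPM in responders, 242 to 250 CPM in bystanders, 58.3 to 62.3 CPM in the LPS pool and 99.0 to 103 CPM in untreated cells, most of it Clec10a, while Flt3 reached at most 2 reads. The fibroblast list ranged from 8.59 to 30.2 CPM in responders, 1.94 to 76.8 CPM in bystanders, 3.04 to 105.5 CPM in the LPS pool and 7.02 to 30.8 CPM in untreated cells. The list of 12 neural markers, most of it Mbp, summed to 43.1 to 54.1 CPM in responders, 53.2 to 62.7 CPM in bystanders, 48.4 to 60.7 CPM in the LPS pool and 88.6 to 105 CPM in untreated cells. Among these, Stmn2, Syt1, Gfap and Gad1 together stood at 4.57 to 8.70 CPM in 6 libraries, 1 responder, 2 bystander, 2 LPS pool and 1 untreated, against 0.158 to 0.429 CPM in the other 10, a division at 2 CPM made after these values were seen. The 6 libraries are replicates 3 and 4 of bystanders and of the LPS pool, and replicate 1 of responders and of untreated cells. Same-numbered libraries of these same pairs of groups also deviated together from their group means over the genes tested (r 0.391 to 0.475 for bystanders with the LPS pool, 0.169 to 0.605 for responders with untreated cells), and the labels name no batch. The part of these markers in the results was not tested. The counts over all 46 genes, and those by role for responders against bystanders, are also given without the 6 libraries.

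Initiation brings a ribosome to the start codon of an mRNA. The GTPase eIF2 carries the initiator methionine tRNA to the small subunit, and eIF2B reloads it with GTP, the step that stress kinases block by phosphorylating the alpha subunit of eIF2. Many mRNAs are selected through their cap by eIF4F, made of the cap-binding protein eIF4E, the scaffold eIF4G and the helicase eIF4A, while 4E-binding proteins (4E-BPs) hold eIF4E away from eIF4G until the kinase complex mTORC1 phosphorylates them. The many-subunit eIF3 links the small subunit to eIF4G, eIF1 and eIF1A govern scanning, and eIF5 and eIF5B complete the joining of the large subunit. In macrophages, LPS signalling is known to act on this machinery in part by phosphorylation, which RNA levels do not show.

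The promoters of 3 members are shown for a motif that some members hold: Eif4a1 and Eif4g1 hold the letters CACGTG, the E-box that MYC and related factors can bind, and Eif4b, a cofactor of the same complex, holds none. The stretches are the 200 bases before the RefSeq start on GRCm38.p6, printed along the gene's strand with the E-box in capitals. They are chr11:69672424-69672623 (minus strand), chr16:20672527-20672726 (plus strand) and chr15:102073573-102073772 (plus strand). For Eif4g1 the start used is that of its promoter window. The gene position of Eif4g1 given below begins at 20672720, inside this stretch.
Eif4a1: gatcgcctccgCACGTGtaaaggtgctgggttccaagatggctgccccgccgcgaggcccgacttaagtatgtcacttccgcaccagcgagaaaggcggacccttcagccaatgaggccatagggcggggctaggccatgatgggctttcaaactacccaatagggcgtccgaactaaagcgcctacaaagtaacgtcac
Eif4g1: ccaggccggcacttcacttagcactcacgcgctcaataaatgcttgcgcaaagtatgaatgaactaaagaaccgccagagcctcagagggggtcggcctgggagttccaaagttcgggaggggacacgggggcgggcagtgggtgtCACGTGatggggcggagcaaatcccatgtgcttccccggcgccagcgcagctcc
Eif4b: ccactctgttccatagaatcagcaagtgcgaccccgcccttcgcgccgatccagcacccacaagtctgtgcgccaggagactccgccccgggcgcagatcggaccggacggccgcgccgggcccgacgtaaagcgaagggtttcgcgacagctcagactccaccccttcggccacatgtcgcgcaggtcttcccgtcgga
The printed E-box begins 189 bases before the start in Eif4a1 and 54 bases before it in Eif4g1. RefSeq promoter windows of 300 bases (250 before and 50 after the start) were found for 35 of the 46 members, and Eif6 was not among them. The Eif4g1 window held 2 matches to CACGTG, so the other match is not fully inside the stretch shown. On either strand, the letters CACGTG were in 9 of these 35 members (25.7%: Eif1b, Eif3a, Eif3f, Eif3k, Eif4a1, Eif4e, Eif4g1, Eif4h and Eif5a) and in 8.09% of 27025 genes with a window. The letters TGACG, the core of a cyclic-AMP response element, were in 48.6% of the members and 23.0% of all genes, both strands searched. An NF-kappaB-like pattern of 3 G, any 5 bases and 2 C was in 57.1% of the members and 53.5% of all genes. The 27025 genes include genes not expressed here, and the shares among tested genes alone were not computed. The 35 members had 47 windows and the 27025 genes 32851, and a gene counted if any of its windows matched. The motifs were searched independently of each other, so matches may overlap. A letter match is a description, not evidence of binding. Of the 9 members with CACGTG, 5 were higher and 1 lower in responders than in bystanders, beside 17 higher and 7 lower of the 26 members without it. Of all genes tested 34.7% were higher and 35.3% lower. These calls used the main library scaling described below, and not all of them held under other scalings. Median log2 fold changes were 0.096 with the motif and 0.18 without it. Eif4g1, with the motif, and Eif4b, without it, were both lower in the LPS pool than in untreated cells.

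Responders and bystanders got the same LPS, so their comparison asks how the factors differ between cells of 1 treatment that sort apart by scatter. Of the 46 genes, 28 were higher and 10 lower in responders, and 8 did not pass the test (edgeR's quasi-likelihood test, adjusted p under 0.05 over all 12589 genes). Over all genes 34.7% were higher and 35.3% lower, against 60.9% and 21.7% of the members, and the members' median log2 fold change was 0.12, beside -0.01 for all genes. The differences were small: 1 member, Eif6, changed at least 1.5-fold, beside 24.0% of all genes. Without the 6 libraries named above 27 were higher and 8 lower, beside 4028 and 4026 of 12642 genes. By role the counts then moved in 3 of the 8 roles. They came to 1 higher and 2 lower of the 4 eIF4E inhibitors and 5 higher and 2 lower of the 9 eIF4F genes. The 5 genes grouped under scanning gave 2 higher and 1 lower. In such bulk libraries, fewer cells of a type and less RNA per cell cannot be told apart.

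The direction of many members depended on how libraries were scaled. The TMM scaling used here gave factors of 0.893 to 0.901 in responders, 1.02 in bystanders, 0.930 to 0.937 in the LPS pool, against 1.17 in untreated cells. As a share of all counts, the 46 genes made up 1.37% in responders, 1.36% in bystanders and 1.41% in the LPS pool, against 1.63% in untreated cells. Their unscaled sums, 13640 to 13740 CPM in responders and 13530 to 13730 CPM in bystanders, overlapped. After TMM scaling their sums were 15150 to 15350 CPM in responders and 13230 to 13460 CPM in bystanders. With library totals alone the median of all genes moved to -0.20 for responders against bystanders, and 17 members were higher and 24 lower. Of all 12589 genes, 2580 were then higher and 6695 lower. Under TMM, size factors, upper quartile factors and library totals alike, 17 members were higher and 8 lower, 37.0% and 17.4% of them, beside 20.5% and 34.8% of all genes. Statements below that a direction held under all 4 scalings refer to these.

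**Figure D1:**
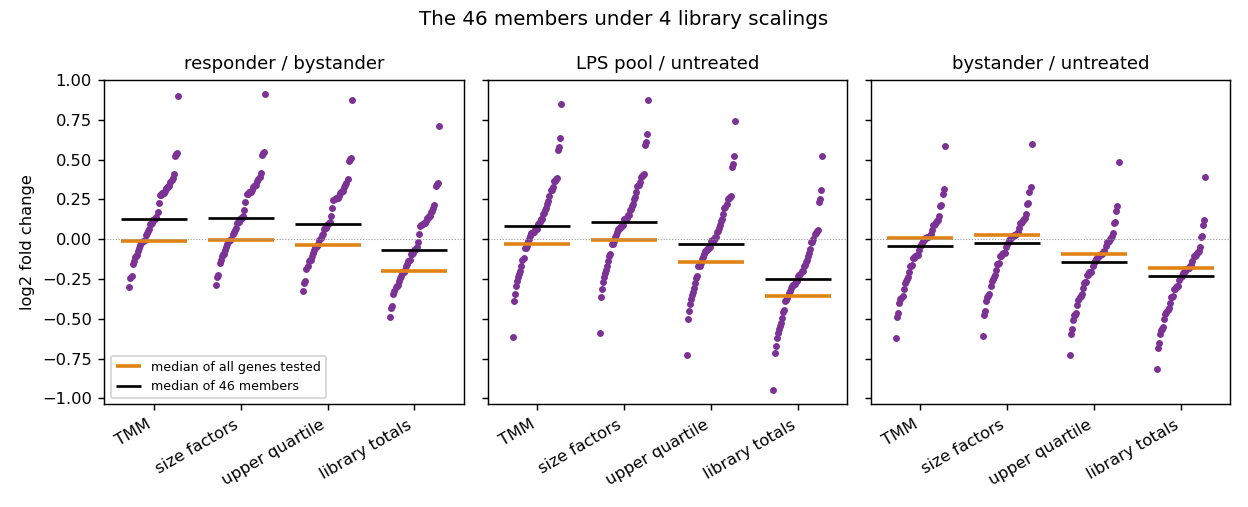
Log2 fold change of each of the 46 initiation factor genes (points, sorted) under 4 library scalings, for responders over bystanders, LPS pool over untreated and bystanders over untreated cells; black lines mark the members' median and orange lines the median of all genes tested. The members' median for responders over bystanders is 0.12 with TMM and -0.07 with library totals, where the median of all genes is -0.20.

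The late factors had the highest median fold change of the roles, at 0.37 on the log2 scale. All 4 were higher in responders than in bystanders under all 4 scalings, beside 20.5% of all genes. Their library sums were 3080 to 3152 CPM in responders and 2324 to 2375 CPM in bystanders. Eif6 (chromosome 2, 155819837 to 155826925, with all gene positions from RefSeq on GRCm38) encodes the factor that keeps the large subunit from joining too early. Levels of Eif6 were 366, 367, 359 and 375 CPM in responders and 189, 191, 201 and 202 CPM in bystanders. They were 355, 363, 369 and 373 CPM in the LPS pool and 201, 204, 201 and 203 CPM in untreated cells. The LPS pool overlapped responders, untreated cells overlapped bystanders, and the first pair lay far above the others. Eif6 was 1.87-fold higher in responders than in bystanders (log2 fold change 0.90 ± 0.023 SE, adjusted p = 2.31e-42, edgeR) and 1.80-fold higher in the LPS pool than in untreated cells (log2 fold change 0.85 ± 0.023 SE, adjusted p = 3.82e-41), while bystanders against untreated cells gave log2 fold change -0.045 ± 0.023 SE, adjusted p = 0.0877. With library totals these 3 log2 values were 0.71, 0.52 and -0.24. Of its exons 5.11% lie over the antisense gene Gm16098, and strandedness is not given in the sources used here.

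Eif5b (chromosome 1, 37998010 to 38055579) encodes the GTPase of subunit joining. The libraries gave Eif5b at 394, 409, 402 and 409 CPM in responders and 332, 328, 337 and 333 CPM in bystanders. In the LPS pool Eif5b was at 415, 417, 402 and 431 CPM, and in untreated cells at 323, 319.7, 311 and 323 CPM. No responder library overlapped a bystander library, and it was higher in responders (log2 fold change 0.28 ± 0.021 SE, adjusted p = 2.69e-18) and in the LPS pool than in untreated cells (log2 fold change 0.38 ± 0.021 SE, adjusted p = 1.86e-24), both under all 4 scalings. Of its exons 16.9% overlap Rev1 on the other strand. Eif5a (chromosome 11, 69916712 to 69921958) encodes the hypusine-carrying protein now known to act in elongation and termination. For Eif5a the responder libraries held 1927, 1957, 1900 and 1923 CPM and the bystander libraries 1532, 1508, 1479 and 1488 CPM. The LPS pool held 1923, 1902, 1897 and 1939 CPM and untreated cells 1667, 1707, 1690 and 1681 CPM. It was the most abundant member per length, at 811 CPM per kb of exon in responders, 632 in bystanders, 806 in the LPS pool, with 709 in untreated cells. Responders exceeded bystanders under all 4 scalings (log2 fold change 0.36 ± 0.017 SE, adjusted p = 1.85e-27). Eif5, whose product triggers GTP hydrolysis by eIF2, stood at 409 to 420 CPM in responders and 306 to 330 CPM in bystanders (log2 fold change 0.39 ± 0.023 SE, adjusted p = 2.79e-23), with 409 to 435 CPM in the LPS pool and 399 to 417 CPM in untreated cells.

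**Figure D2:**
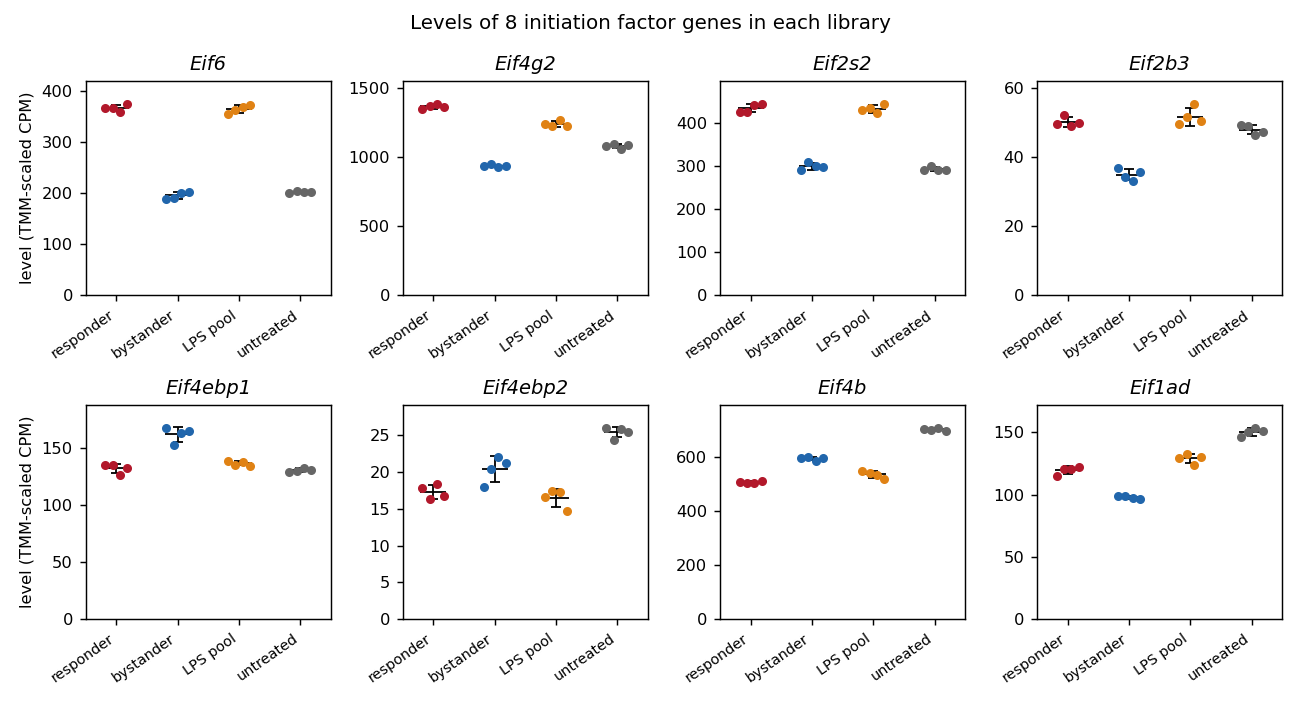
Levels of 8 initiation factor genes in every library, as TMM-scaled CPM; points are the 4 libraries of a group and bars the mean with the SD. Eif6 sits at 359 to 375 CPM in responders and 189 to 202 CPM in bystanders, and Eif4b is highest in untreated cells at 695 to 708 CPM.

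The 3 subunits of eIF2 did not move together. Eif2s2 (chromosome 2, 154871410 to 154892906), for the beta subunit, was higher in responders and Eif2s3x (chromosome X, 94188709 to 94212651), for the gamma subunit, was lower, both under all 4 scalings. In responders Eif2s2 was at 427, 427, 443 and 444 CPM, and in bystanders at 292, 311, 300.1 and 298 CPM. The 4 pool libraries of Eif2s2 gave 431, 434, 424 and 445 CPM, and the 4 untreated libraries 291, 301, 291 and 291 CPM. Responders and the LPS pool lay together above bystanders and untreated cells, with log2 fold change 0.54 ± 0.021 SE, adjusted p = 1.74e-31 for responders over bystanders and log2 fold change 0.56 ± 0.022 SE, adjusted p = 1.78e-32 for the LPS pool over untreated cells. Eif2s3x stood at 126, 129.9, 129.8 and 131 CPM in responders and 145, 142, 147 and 141 CPM in bystanders. The LPS pool libraries had 122, 118, 119.9 and 114 CPM, and the untreated libraries 141, 141, 147 and 141 CPM. Here the responder libraries were below the bystander libraries (log2 fold change -0.16 ± 0.026 SE, adjusted p = 5e-07) and the pool was below untreated cells (log2 fold change -0.26 ± 0.027 SE, adjusted p = 3.33e-13). Near-identical pseudogene sequence covers 39.0% of the Eif2s2 transcript (Gm9892) and 37.0% of the Eif2s3x transcript (Gm2223), so reads may have been split. Eif2s1 (chromosome 12, 78862072 to 78887010), for the alpha subunit that stress kinases phosphorylate, was higher in responders (log2 fold change 0.29 ± 0.025 SE, adjusted p = 3.64e-15). Levels of Eif2s1 were 272, 278, 290.4 and 299.9 CPM in responders and 232, 244, 230.4 and 228 CPM in bystanders. They were 274, 281, 264 and 276 CPM in the LPS pool and 245, 254, 254 and 252 CPM in untreated cells. Untreated cells lay between the sorted groups.

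Of the 5 eIF2B genes, 4 were higher in responders than in bystanders, 3 of them under all 4 scalings, and Eif2b1 did not pass. Over all genes 34.7% were higher, and 20.5% under all 4 scalings. Eif2b3 (chromosome 4, 117019399 to 117086852), for the gamma subunit of the exchange factor, differed most. The libraries gave Eif2b3 at 49.5, 52.2, 48.9 and 49.8 CPM in responders and 36.8, 34.2, 33.1 and 35.6 CPM in bystanders. In the LPS pool Eif2b3 was at 49.4, 51.6, 55.4 and 50.4 CPM, and in untreated cells at 49.3, 48.9, 46.5 and 47.3 CPM. The low group was bystanders, below responders (log2 fold change 0.52 ± 0.043 SE, adjusted p = 7.38e-17) and below untreated cells (log2 fold change -0.46 ± 0.043 SE, adjusted p = 1.07e-14). Eif2b4 (delta subunit; chromosome 5, 31187558 to 31193139) was higher in responders than in bystanders (log2 fold change 0.30 ± 0.039 SE, adjusted p = 6.33e-10) and lower in bystanders than in untreated cells (log2 fold change -0.49 ± 0.038 SE, adjusted p = 8.37e-18). For Eif2b4 the responder libraries held 58.0, 56.1, 55.1 and 56.2 CPM and the bystander libraries 44.2, 48.7, 45.5 and 44.9 CPM. The LPS pool held 53.7, 57.0, 57.9 and 60.7 CPM and untreated cells 62.6, 63.9, 65.1 and 65.4 CPM. All LPS libraries were below all untreated libraries. Eif2b1 (alpha subunit; chromosome 5, 124570214 to 124579131) was lower in the LPS pool than in untreated cells (log2 fold change -0.29 ± 0.035 SE, adjusted p = 2.59e-11) and likewise in bystanders (log2 fold change -0.38 ± 0.034 SE, adjusted p = 2.67e-15), both under all 4 scalings. In responders Eif2b1 was at 68.8, 67.2, 68.8 and 66.5 CPM, and in bystanders at 65.7, 66.1, 65.9 and 62.6 CPM. The 4 pool libraries of Eif2b1 gave 67.3, 67.4, 69.1 and 71.6 CPM, and the 4 untreated libraries 86.0, 82.8, 88.8 and 79.98 CPM. Eif2b2 (beta subunit; chromosome 12, 85219481 to 85226628) was the subunit with the highest fold change in responders against untreated cells (log2 fold change 0.41 ± 0.033 SE, adjusted p = 1.49e-17), a difference of 0.030 (adjusted p = 0.402) with library totals. Eif2b2 stood at 90.2, 88.6, 83.3 and 89.3 CPM in responders and 70.3, 68.5, 69.5 and 72.1 CPM in bystanders. The LPS pool libraries had 86.8, 83.3, 83.5 and 87.4 CPM, and the untreated libraries 62.7, 66.5, 68.5 and 66.3 CPM. As a sum the 5 genes gave 364 to 370 CPM in responders and 311 to 314 CPM in bystanders.

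Among the 14 genes of eIF3, 9 were higher in responders than in bystanders, 1 was lower and 4 did not pass, and 3 of the 14 (Eif3d, Eif3g and Eif3j1) were higher under all 4 scalings, a share close to the 20.5% of all genes. Eif3g (chromosome 9, 20894349 to 20898590), for an RNA-binding subunit, had the largest difference of them. Levels of Eif3g were 246, 242, 238 and 239 CPM in responders and 186, 181, 184 and 178 CPM in bystanders. They were 249.3, 255, 234 and 244 CPM in the LPS pool and 215, 217, 226 and 224 CPM in untreated cells. Responders exceeded bystanders (log2 fold change 0.41 ± 0.024 SE, adjusted p = 6.63e-23). Eif3d, for a subunit that can bind the cap of some mRNAs, was at 187 to 194 CPM in responders and 147 to 154 CPM in bystanders (log2 fold change 0.33 ± 0.025 SE, adjusted p = 1.07e-18), but the antisense gene Gm17638 overlaps 43.3% of its exons. Eif3j1, for a loosely bound subunit, was at 168 to 177 CPM in responders and 134 to 143 CPM in bystanders (log2 fold change 0.33 ± 0.025 SE, adjusted p = 3.1e-18), and Eif3j2, whose whole transcript has a near-identical copy, may share reads with it. Eif3a, for the core scaffold of eIF3, was lower in responders under all 4 scalings, at 699 to 707 CPM in responders and 741 to 772 CPM in bystanders (log2 fold change -0.10 ± 0.019 SE, adjusted p = 1.93e-06). Eif3h (chromosome 15, 51786563 to 51865461), for an MPN-domain subunit, stood higher in LPS-treated than in untreated cells with TMM scaling. The libraries gave Eif3h at 394, 401, 387 and 389 CPM in responders and 399.9, 399.9, 395 and 382 CPM in bystanders. In the LPS pool Eif3h was at 398, 402, 410.2 and 395 CPM, and in untreated cells at 337, 334, 344 and 343 CPM. All LPS libraries were above all untreated libraries (log2 fold change 0.21 ± 0.021 SE, adjusted p = 5.39e-14 for responders, log2 fold change 0.21 ± 0.021 SE, adjusted p = 4.19e-14 for bystanders, log2 fold change 0.24 ± 0.021 SE, adjusted p = 4.97e-16 for the LPS pool). With library totals the values were -0.17 for responders, 0.020 for bystanders and -0.087 for the pool, so the direction in responders and the pool turned.

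Within the eIF4F family of 9 genes, 5 were higher and 3 lower in responders than in bystanders, and paralogues differed in direction. Under all 4 scalings 3 were higher (Eif4a1, Eif4e2 and Eif4g2) and 1 lower (Eif4g3), beside 20.5% and 34.8% of all genes. Eif4g2 (chromosome 7, 111067985 to 111083030) encodes DAP5, a scaffold relative that lacks the eIF4E-binding part. For Eif4g2 the responder libraries held 1351, 1371, 1387 and 1367 CPM and the bystander libraries 941, 951, 934 and 934 CPM. The LPS pool held 1242, 1228, 1272 and 1225 CPM and untreated cells 1084, 1097, 1061 and 1092 CPM. Its libraries fell into 4 separate levels, highest in responders and lowest in bystanders, with log2 fold change 0.54 ± 0.018 SE, adjusted p = 1.02e-35 between these groups. Eif4g1 (chromosome 16, 20672720 to 20692883), encodes the main scaffold. In responders Eif4g1 was at 830.3, 814, 809 and 828 CPM, and in bystanders at 758, 763, 768 and 769.9 CPM. The 4 pool libraries of Eif4g1 gave 808, 789.5, 791 and 749 CPM, and the 4 untreated libraries 859, 851, 863 and 864 CPM. It was higher in responders (log2 fold change 0.10 ± 0.019 SE, adjusted p = 5.74e-06), but -0.089 with library totals, and lower in the LPS pool than in untreated cells under all 4 scalings (log2 fold change -0.13 ± 0.019 SE, adjusted p = 1.73e-08). Eif4g3 (chromosome 4, 137991779 to 138207086), the other full-length scaffold, was lower in responders than in bystanders (log2 fold change -0.14 ± 0.030 SE, adjusted p = 6.32e-05). Eif4g3 stood at 101, 100.5, 102 and 97.9 CPM in responders and 109.8, 111, 113 and 108 CPM in bystanders. The LPS pool libraries had 98.8, 103, 95.7 and 93.4 CPM, and the untreated libraries 101, 103, 98.1 and 106 CPM.

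Eif4a1 (chromosome 11, 69666936 to 69672423) encodes the main eIF4A helicase. Levels of Eif4a1 were 1579, 1613, 1606 and 1627 CPM in responders and 1312, 1356, 1308 and 1332 CPM in bystanders. They were 1592, 1586, 1586 and 1631 CPM in the LPS pool and 1233, 1253, 1207 and 1231 CPM in untreated cells. It was higher in responders than in bystanders (log2 fold change 0.28 ± 0.018 SE, adjusted p = 3.3e-21) and in the LPS pool than in untreated cells (log2 fold change 0.38 ± 0.018 SE, adjusted p = 9.35e-28) under all 4 scalings, with 0.085 and 0.049 by library totals. Near-identical sequence in the pseudogene Eif4a-ps4 covers 68.7% of its transcript. Its paralogue Eif4a2 was at 177 to 189 CPM in responders and 182 to 202 CPM in bystanders, overlapping (log2 fold change -0.074 ± 0.032 SE, adjusted p = 0.0395). This call was lost with DESeq2 size factors (-0.067, adjusted p = 0.0671, edgeR) and in 12 of 16 fits that each left out 1 library, most without bystander replicate 2 (-0.048, adjusted p = 0.163). The third helicase gene, Eif4a3, was called lower but lost that call with DESeq2 size factors too (-0.049, adjusted p = 0.0758, edgeR). Eif4e (chromosome 3, 138526191 to 138559696), the cap-binding protein itself, changed little. The libraries gave Eif4e at 236, 248, 252 and 245 CPM in responders and 240.0, 229, 222 and 227 CPM in bystanders. In the LPS pool Eif4e was at 235, 233, 236 and 241 CPM, and in untreated cells at 224, 233, 225 and 231 CPM. Responders were higher (log2 fold change 0.10 ± 0.024 SE, adjusted p = 0.000279), but with library totals the value was -0.094, and the LPS pool against untreated cells gave log2 fold change 0.048 ± 0.024 SE, adjusted p = 0.0661. Its relative Eif4e2, known as 4EHP and linked to repression, was higher in responders under all 4 scalings (log2 fold change 0.32 ± 0.027 SE, adjusted p = 2.37e-16). Eif4e3 (chromosome 6, 99621879 to 99692873), another cap-binding relative, was low. For Eif4e3 the responder libraries held 9.75, 10.7, 11.9 and 11.6 CPM and the bystander libraries 7.96, 12.5, 11.02 and 11.6 CPM. The LPS pool held 10.6, 9.78, 12.2 and 12.5 CPM and untreated cells 7.97, 6.43, 7.92 and 6.51 CPM. It was higher than in untreated cells in the LPS pool (log2 fold change 0.64 ± 0.11 SE, adjusted p = 2.36e-06) and in bystanders (log2 fold change 0.59 ± 0.11 SE, adjusted p = 6.91e-06), under all 4 scalings, although 1 bystander library overlapped the untreated ones, and responders against bystanders gave log2 fold change 0.025 ± 0.10 SE, adjusted p = 0.844.

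Of 4 genes for proteins that restrain eIF4E, 3 were lower in responders than in bystanders under all 4 scalings (Eif4ebp1, Eif4ebp2 and Eif4enif1), and Eif4ebp3 was higher (log2 fold change 0.37 ± 0.10 SE, adjusted p = 0.000972), though not with library totals (0.18, adjusted p = 0.104). Over all genes 34.8% were lower under all 4 scalings, and 34.7% were higher with TMM scaling. The 4 inhibitor genes had list sums of 209 to 217 CPM in responders and 240 to 254 CPM in bystanders. Eif4ebp1 (chromosome 8, 27260327 to 27275656) encodes 4E-BP1, the most abundant of the 3 binding proteins here. In responders Eif4ebp1 was at 135, 135, 127 and 132 CPM, and in bystanders at 168, 153, 163 and 166 CPM. The 4 pool libraries of Eif4ebp1 gave 139, 136, 138 and 135 CPM, and the 4 untreated libraries 129, 130.4, 133 and 131 CPM. Bystanders stood above every other group, over responders (log2 fold change -0.30 ± 0.027 SE, adjusted p = 2.88e-15, responders over bystanders) and over untreated cells (log2 fold change 0.31 ± 0.027 SE, adjusted p = 3.35e-16), in both cases under all 4 scalings. Eif4ebp2 (chromosome 10, 61428491 to 61452790) encodes the related 4E-BP2. Eif4ebp2 stood at 17.9, 16.3, 18.4 and 16.7 CPM in responders and 17.98, 20.4, 22.003 and 21.2 CPM in bystanders. The LPS pool libraries had 16.6, 17.4, 17.3 and 14.8 CPM, and the untreated libraries 26.1, 24.4, 25.9 and 25.5 CPM. All LPS libraries were below all untreated libraries, and the lowest bystander library overlapped the responders (log2 fold change -0.24 ± 0.064 SE, adjusted p = 0.000604, responders over bystanders). Without the 6 libraries with neural transcripts this difference was -0.16 (adjusted p = 0.0955, edgeR) and no longer passed. It was lower in the LPS pool than in untreated cells (1.53-fold lower, log2 fold change -0.62 ± 0.064 SE, adjusted p = 4.35e-13) and also lower in bystanders (log2 fold change -0.31 ± 0.060 SE, adjusted p = 7.15e-06). Eif4ebp3, for 4E-BP3 and the lowest of all members, was lower in bystanders than in untreated cells (log2 fold change -0.40 ± 0.10 SE, adjusted p = 0.000335). Levels of Eif4ebp3 were 7.75, 7.26, 7.02 and 7.79 CPM in responders and 5.44, 5.52, 5.51 and 6.52 CPM in bystanders. They were 8.03, 8.21, 7.32 and 9.15 CPM in the LPS pool and 7.97, 8.28, 7.20 and 7.05 CPM in untreated cells. Another annotated gene, AC115631.1, covers 67.3% of its exons on the same strand. Eif4enif1 (chromosome 11, 3202343 to 3244588) encodes 4E-T, which carries eIF4E into the nucleus and processing bodies. The libraries gave Eif4enif1 at 56.6, 55.8, 56.7 and 56.7 CPM in responders and 62.1, 60.7, 61.4 and 59.6 CPM in bystanders. In the LPS pool Eif4enif1 was at 59.2, 60.6, 59.0 and 50.3 CPM, and in untreated cells at 72.4, 74.4, 71.8 and 73.4 CPM. All LPS libraries were below all untreated libraries (log2 fold change -0.34 ± 0.038 SE, adjusted p = 5e-12 for the pool).

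Eif4b (chromosome 15, 102073773 to 102097173) encodes a cofactor of the eIF4A helicase. For Eif4b the responder libraries held 507, 504, 502 and 509 CPM and the bystander libraries 597, 599, 585 and 594 CPM. The LPS pool held 549, 541, 533 and 518 CPM and untreated cells 703, 698, 708 and 695 CPM. The 4 groups did not overlap, with responders lowest and untreated cells highest. Eif4b was lower in responders than in bystanders (log2 fold change -0.23 ± 0.019 SE, adjusted p = 1.51e-16), in the LPS pool than in untreated cells (log2 fold change -0.39 ± 0.019 SE, adjusted p = 7.98e-27) and in responders than in untreated cells (log2 fold change -0.47 ± 0.019 SE, adjusted p = 2.35e-31), each under all 4 scalings. Its relative Eif4h did not pass between responders and bystanders (log2 fold change -0.018 ± 0.019 SE, adjusted p = 0.415).

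Of the 5 genes grouped under start-site scanning, 3 were higher and 1 lower in responders than in bystanders. Under all 4 scalings 2 were higher (Eif1ad and Eif1ax) and 1 lower (Eif1a). Over all genes 34.7% were higher and 35.3% lower, and 20.5% and 34.8% under all 4 scalings. Eif1ad (chromosome 19, 5366813 to 5371518), for an eIF1A-domain relative, was grouped here for that domain alone, not for a shown role in scanning. It had the lowest fold change of all members in bystanders against untreated cells. In responders Eif1ad was at 115, 121, 121 and 122 CPM, and in bystanders at 98.8, 98.9, 97.2 and 96.2 CPM. The 4 pool libraries of Eif1ad gave 129.6, 132, 124 and 130.2 CPM, and the 4 untreated libraries 146, 149.9, 154 and 151 CPM. The 4 groups were fully apart, with bystanders lowest (log2 fold change -0.62 ± 0.028 SE, adjusted p = 3e-29 against untreated cells) and responders above them (log2 fold change 0.29 ± 0.029 SE, adjusted p = 7.02e-14). Banf1 on the other strand overlaps 15.3% of its exons. Eif1a (chromosome 18) and Eif1ax (chromosome X, 159372178 to 159389621) both encode eIF1A, and they differed in opposite directions. Eif1a stood at 214, 228, 223 and 222 CPM in responders and 246, 242, 229.8 and 235 CPM in bystanders. The LPS pool libraries had 211, 211, 204 and 211 CPM, and the untreated libraries 203, 205, 208 and 207 CPM. Bystanders were above all other groups. Levels of Eif1ax were 132, 136, 148 and 140.1 CPM in responders and 113, 115, 109.6 and 118 CPM in bystanders. They were 135, 136, 142 and 142 CPM in the LPS pool and 122, 122, 125 and 125 CPM in untreated cells. Here bystanders were lowest. Eif1a was lower in responders than in bystanders (log2 fold change -0.10 ± 0.023 SE, adjusted p = 0.00014) and Eif1ax higher (log2 fold change 0.29 ± 0.029 SE, adjusted p = 2.12e-13), both under all 4 scalings. Eif1 (chromosome 11, 100319949 to 100322099), the gatekeeper of start-codon choice, was higher after LPS with TMM scaling. The libraries gave Eif1 at 427, 448, 428 and 429.6 CPM in responders and 415, 430.3, 413 and 412 CPM in bystanders. In the LPS pool Eif1 was at 439, 435, 446 and 447 CPM, and in untreated cells at 349.7, 336, 341 and 346 CPM. All LPS libraries lay above all untreated libraries, with log2 fold change 0.34 ± 0.021 SE, adjusted p = 2.01e-22 for responders, log2 fold change 0.28 ± 0.021 SE, adjusted p = 7.75e-19 for bystanders and log2 fold change 0.36 ± 0.021 SE, adjusted p = 9.87e-24 for the pool. The difference held under all 4 scalings for bystanders, but library totals gave -0.048 (adjusted p = 0.0267) for responders and 0.035 (adjusted p = 0.109) for the pool.

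**Figure D3:**
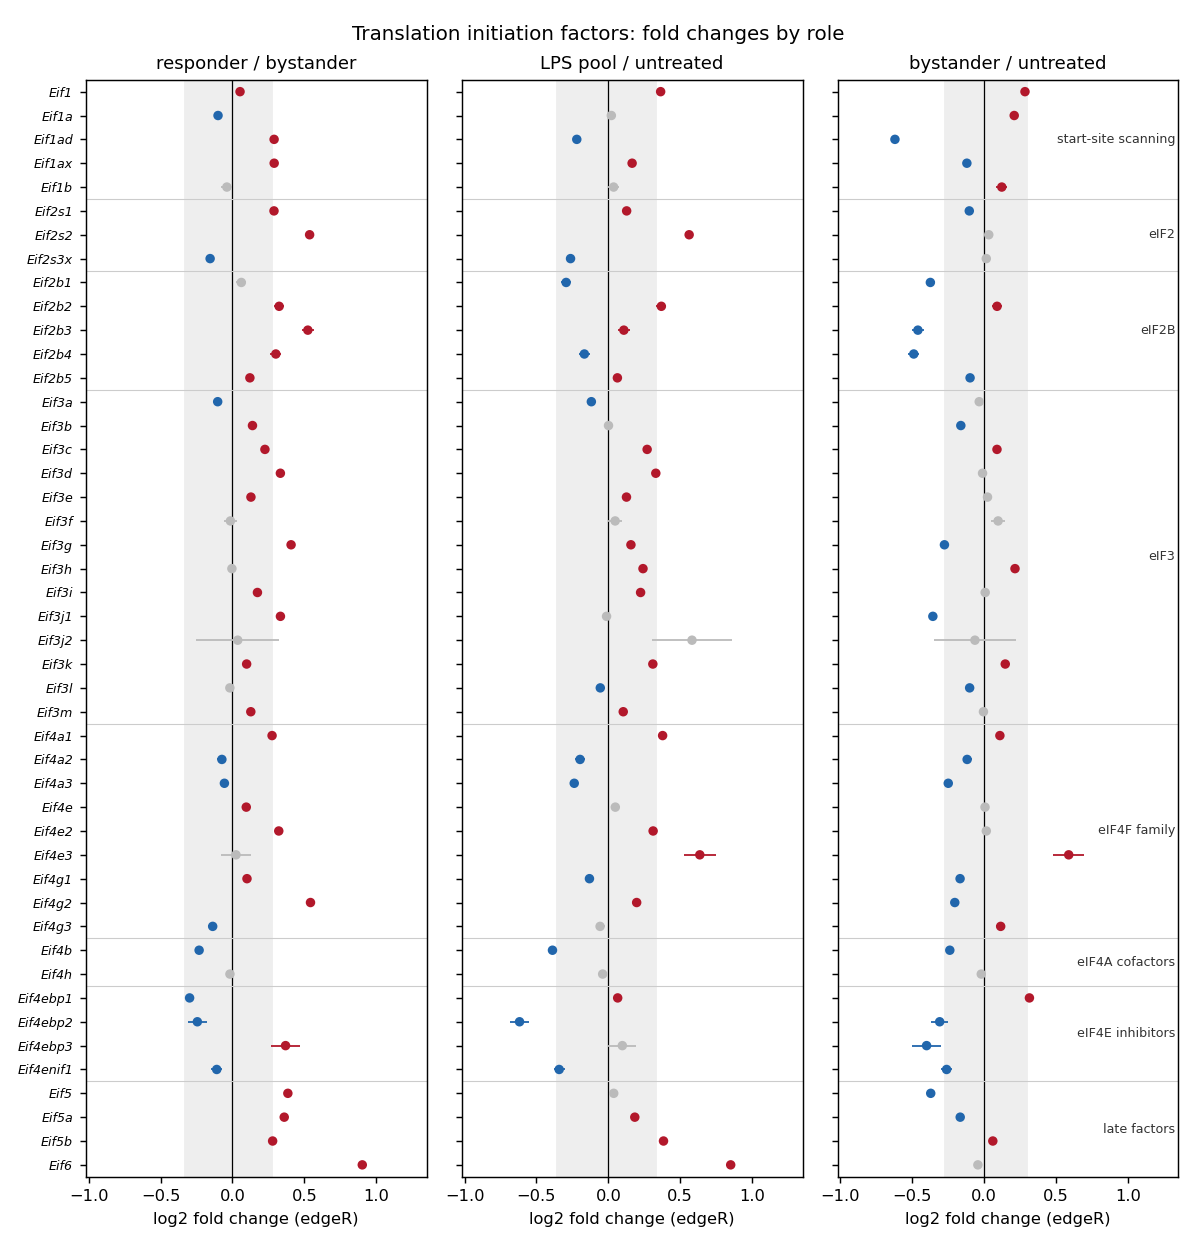
Log2 fold changes (edgeR, bars are the SE) of the 46 initiation factor genes ordered by role, for responders over bystanders, LPS pool over untreated and bystanders over untreated cells; red and blue points are higher and lower at adjusted p under 0.05 with TMM scaling, grey points are not called, and the grey band is the middle range (quartiles) of all genes tested. All 4 late factors are to the right for responders over bystanders and 4 of 5 eIF2B genes to the left for bystanders over untreated cells, directions that library totals kept.

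The comparison of the LPS pool with untreated cells shows the whole treated culture. Of the members 23 were higher and 12 lower, beside 34.1% and 37.8% of all genes, and 3 changed at least 1.5-fold (Eif6, Eif4e3 and Eif4ebp2), beside 27.4% of all genes. The median was 0.08 for the members and -0.03 for all genes. Without the 6 libraries 21 members were higher and 11 lower, beside 4124 and 4384 of 12642 genes. The split turned to 15 higher and 19 lower with upper quartile factors and to 5 higher and 35 lower with library totals, where the median of all genes was -0.36. Of all 12589 genes, 3434 were higher and 5933 lower with upper quartile factors, and 2216 and 8027 with library totals. Under all 4 scalings 5 were higher (Eif2s2, Eif4a1, Eif4e3, Eif5b and Eif6) and 11 lower, beside 17.6% and 35.5% of all genes, so neither count stands above its background.

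Bystanders and responders can each be set against the same untreated libraries, so the next values share their controls. In responders 23 members were higher and 12 lower than in untreated cells, beside 36.5% and 38.5% of all genes, and in bystanders 12 were higher and 21 lower, beside 34.1% and 32.9%. In responders 2 members changed at least 1.5-fold (Eif4e3 and Eif6, both up), beside 32.7% of all genes, and in bystanders 2 (Eif1ad down and Eif4e3 up), beside 21.9%. With library totals the splits were 3 higher and 39 lower in responders and 3 higher and 37 lower in bystanders, with the median of all genes at -0.41 and -0.18. Of all 12589 genes, 2286 were then higher and 8238 lower in responders, and 2491 and 6576 in bystanders. Upper quartile factors gave 14 higher and 19 lower in responders and 5 higher and 32 lower in bystanders. All genes then gave 3556 higher and 6117 lower in responders, and 3185 and 5416 in bystanders. Under all 4 scalings 3 members were higher (Eif2s2, Eif4e3 and Eif6) and 12 lower in responders than in untreated cells, 6.52% and 26.1% of them, beside 18.2% and 37.0% of all genes. Likewise 3 members were higher (Eif1, Eif4e3 and Eif4ebp1) and 21 lower in bystanders than in untreated cells, beside 19.8% and 31.7% of all genes. Without the 6 libraries responders had 23 higher and 12 lower and bystanders 9 higher and 22 lower. All 12642 genes tested then gave 4542 higher and 4720 lower in responders, and 3931 and 3754 in bystanders. The 21 lower in bystanders include 4 of the 5 eIF2B genes. They also include 4 of the 14 eIF3 genes, a share below the 31.7% of all genes.

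In TMM-scaled levels 5 members were called higher in responders and lower in bystanders than in untreated cells. Eif4g2 was at 0.34 in responders and -0.21 in bystanders on the log2 scale, Eif5a at 0.19 in responders and -0.17 in bystanders, and Eif3g at 0.13 in responders and -0.28 in bystanders. Eif2s1 gave 0.18 in responders and -0.10 in bystanders, and Eif1ax gave 0.17 in responders and -0.12 in bystanders. With library totals all 5 were below untreated cells in both sorted groups, Eif4g2 for instance at -0.046 in responders and -0.40 in bystanders, and upper quartile factors put Eif3g at -0.0035 in responders. The sign in responders thus depended on the scaling. The order of responders above bystanders did not, but the 5 members were picked for that order with TMM scaling, so it is not a separate result.

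The sorted cells together were also set against the ungated pool, as the mean of responder and bystander log2 levels. Of the members 5 were higher and 26 lower in the sorted mean, beside 24.4% and 24.8% of all genes, with medians of -0.08 and 0.00. This mean weights responders and bystanders equally, and the share of each in the pool is not given in the sources used here. A mean of log2 levels lies below the log2 level of an equal mixture, and further below for genes that differ more between the sorted groups. The 5 LPS response genes had a median of -2.61 in the same comparison, and a median of 5.80 for responders against bystanders. Part of their -2.61 is thus set by the averaging. As 28 members were higher in responders than in bystanders, a lower sorted mean cannot be told apart from a pool that holds more responder than bystander RNA. With library totals 11 were higher and 21 lower, beside 3909 and 2443 of 12589 genes. The low gene Eif3j2 was lowest (log2 fold change -0.63 ± 0.24 SE, adjusted p = 0.0454), then Eif6 (log2 fold change -0.44 ± 0.019 SE, adjusted p = 3.35e-29), and Eif2s3x was highest (log2 fold change 0.20 ± 0.024 SE, adjusted p = 1.96e-10), the last 2 under all 4 scalings. Without the 6 libraries named above 4 were higher and 23 lower, beside 2443 and 2649 of 12642 genes. Eif6 stood at 359 to 375 CPM in responders and 189 to 202 CPM in bystanders, against 355 to 373 CPM in the pool. The ungated cells were collected after the gated ones, and the gate and the time of collection cannot be told apart.

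Ratios of related genes within a library do not depend on scaling. Over 11 pairs and 3 comparisons, 33 exact permutation tests over libraries were made (two-sided, 4 against 4, where the smallest possible p is 0.0286). With Benjamini-Hochberg adjustment 7 pairs differed between responders and bystanders, 7 between the LPS pool and untreated cells and 6 between bystanders and untreated cells. Each was at the smallest p, with an adjusted p = 0.0471 that depends on how many tests reached it, so these pairs passed together. The tests share libraries, and some pairs share a gene, so they are not independent. The helicase ratio Eif4a1 to Eif4a2 was 8.85 ± 0.20 in responders, 6.93 ± 0.25 in bystanders, 8.82 ± 0.28 in the LPS pool, against 5.93 ± 0.24 in untreated cells (SD, n = 4 each). Responder and pool libraries, at 8.51 to 9.11, stood clear of bystanders at 6.70 to 7.19, which stood clear of untreated cells at 5.60 to 6.18. The scaffold ratio Eif4g1 to Eif4g2 was 0.599 ± 0.014 in responders, 0.814 ± 0.011 in bystanders, 0.631 ± 0.018 in the pool and 0.793 ± 0.016 in untreated cells.

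For the inhibitor 4E-BP1 over its target, Eif4ebp1 to Eif4e was 0.541 ± 0.028 in responders, 0.709 ± 0.031 in bystanders, 0.580 ± 0.014 in the pool and 0.574 ± 0.014 in untreated cells. Bystanders alone stood apart: the pool against untreated cells had p = 0.543, adjusted 0.578 (exact permutation test). The ratio Eif4ebp1 to Eif4ebp2 instead followed the treatment, at 7.66 ± 0.59 in responders, 8.03 ± 0.90 in bystanders, 8.33 ± 0.58 in the pool and 5.15 ± 0.16 in untreated cells, and did not differ between responders and bystanders beyond the spread (p = 0.6, adjusted 0.619, exact permutation test). The cofactor ratio Eif4b to Eif4h was 1.07 ± 0.012 in responders, 1.24 ± 0.018 in bystanders, 1.13 ± 0.033 in the pool and 1.45 ± 0.010 in untreated cells, with no overlap in any of the 3 comparisons. The cap-binding ratio Eif4e to Eif4e2 was 1.45 ± 0.051 in responders, 1.70 ± 0.086 in bystanders, 1.43 ± 0.060 in the pool and 1.71 ± 0.039 in untreated cells. The eIF1A ratio Eif1a to Eif1ax was 1.60 ± 0.071 in responders, 2.096 ± 0.073 in bystanders, 1.51 ± 0.058 in the pool and 1.67 ± 0.015 in untreated cells. The ratio Eif4g1 to Eif4g3 was 8.16 ± 0.23 in responders, 6.92 ± 0.13 in bystanders, 8.02 ± 0.28 in the pool and 8.43 ± 0.30 in untreated cells, with bystanders below responders and untreated cells. The ratio Eif1 to Eif1b was 7.48 ± 0.19 in responders, 7.04 ± 0.28 in bystanders, 7.88 ± 0.30 in the pool and 6.29 ± 0.40 in untreated cells, and passed for the pool against untreated cells alone. The pairs Eif4e2 with Eif4e3 and Eif3j1 with Eif3j2 passed in none of the 3 comparisons, with raw p of at least 0.0571.

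**Figure D4:**
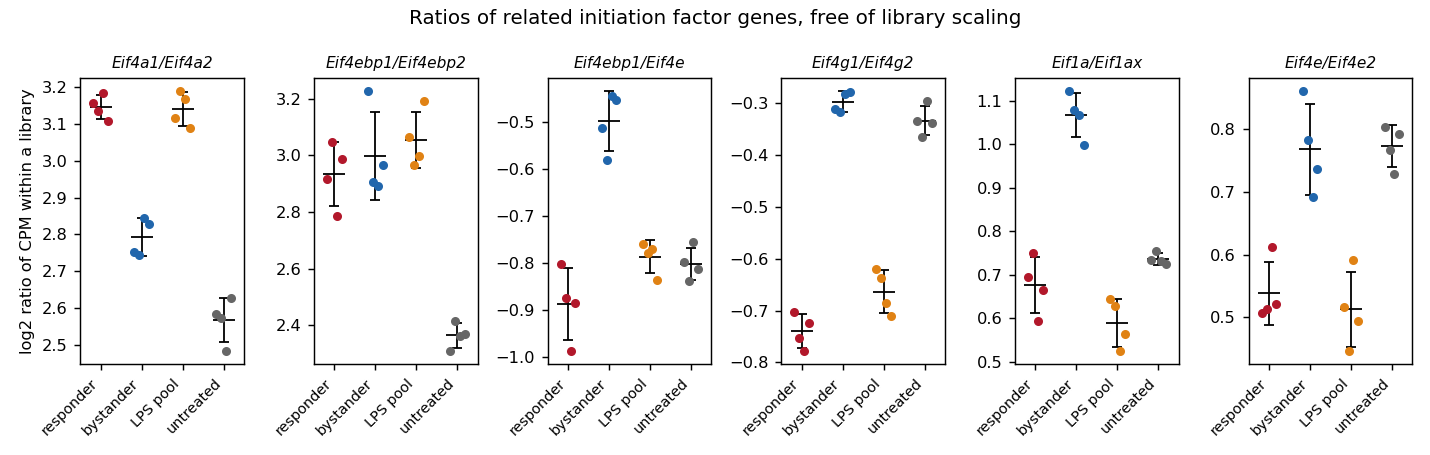
Log2 ratio of CPM of 6 pairs of related initiation factor genes in each library, by group; points are the 4 libraries and bars the mean with the SD. Eif4ebp1 to Eif4e is highest in the 4 bystander libraries, and Eif4a1 to Eif4a2 is lowest in the 4 untreated libraries.

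Per kilobase of exon the factors spanned a wide range of levels in untreated cells. Eif5a led at 709 CPM per kb, followed by Eif4a1 at 284, Eif3b at 237, Eif3h at 211 and Eif1 at 164. The lowest were Eif4e3 at 2.87, Eif3j2 at 2.93, Eif4ebp2 at 4.40 and Eif2b3 at 7.36 CPM per kb. Among subunits that share a complex, eIF2 stood at 50.7 (Eif2s1), 43.5 (Eif2s2) and 37.4 (Eif2s3x), and eIF2B at 7.36 (Eif2b3) to 39.9 (Eif2b5). In responders Eif2s2 was at 64.4 and Eif2s3x at 33.9 CPM per kb, and in bystanders Eif2s2 was at 44.4 and Eif2s3x at 37.7 CPM per kb.

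Other genes that act on initiation were followed as 5 lists. Their counts with TMM scaling read against 34.7% of all genes higher and 35.3% lower in responders than in bystanders. For the LPS pool against untreated cells these shares were 34.1% and 37.8%. Their counts with library totals read against 2580 genes higher and 6695 lower of 12589 in responders than in bystanders. For the pool against untreated cells these were 2216 and 8027. Of 12 eIF2 kinases, phosphatase subunits and stress targets, 7 were higher and 1 lower in responders than in bystanders, and 9 were higher and 3 lower in the LPS pool than in untreated cells. With library totals the list gave 6 higher and 6 lower between responders and bystanders, and 8 and 4 between the pool and untreated cells. Eif2ak2, for the double-stranded RNA kinase PKR, was at 184, 195, 194 and 199 CPM in responders and 399.5, 403, 393 and 406 CPM in bystanders, and at 180.3, 176, 179 and 178 CPM in the LPS pool, against 64.7, 63.2, 65.6 and 62.3 CPM in untreated cells. It was highest in bystanders, -1.05 in responders against bystanders (adjusted p = 8.98e-46, edgeR) and 2.65 in bystanders against untreated cells (adjusted p = 3.03e-65), under all 4 scalings. Eif2ak3, for the endoplasmic reticulum kinase PERK, was at 12.7, 12.3, 13.4 and 13.9 CPM in responders and 14.6, 13.8, 12.7 and 12.8 CPM in bystanders, and at 13.4, 15.1, 12.4 and 14.4 CPM in the LPS pool, against 25.3, 21.6, 24.0 and 24.9 CPM in untreated cells, lower in the pool (log2 fold change -0.79 ± 0.070 SE, adjusted p = 1.17e-15) and in bystanders (log2 fold change -0.84 ± 0.068 SE, adjusted p = 3.79e-17) than in untreated cells. Atf4, for the transcription factor made when eIF2 is phosphorylated, was at 267, 272, 273 and 272 CPM in responders and 179, 172, 176 and 169 CPM in bystanders, and at 265, 253, 251 and 259 CPM in the LPS pool, against 147, 149.9, 144 and 142 CPM in untreated cells, higher in responders (log2 fold change 0.64 ± 0.024 SE, adjusted p = 2.24e-33) and in the pool (log2 fold change 0.82 ± 0.024 SE, adjusted p = 1.26e-38) under all 4 scalings. Ppp1r15a, for the GADD34 subunit that brings phosphatase to eIF2, was higher in responders (log2 fold change 0.43 ± 0.033 SE, adjusted p = 9.49e-18) and in the pool (log2 fold change 0.75 ± 0.036 SE, adjusted p = 6.97e-28).

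Of 12 kinases, inhibitors and partners of eIF4F, 3 were higher and 9 lower in responders than in bystanders, and 2 were higher and 7 lower in the pool than in untreated cells. Library totals gave 2 and 9 for responders against bystanders, and 2 and 10 for the pool. Pdcd4, which blocks eIF4A, was at 2.33, 1.88, 1.94 and 1.87 CPM in responders and 9.85, 9.33, 10.3 and 10.6 CPM in bystanders, and at 3.64, 4.46, 3.85 and 4.50 CPM in the LPS pool, against 9.61, 9.54, 9.57 and 10.3 CPM in untreated cells. Responders were lowest (log2 fold change -2.32 ± 0.12 SE, adjusted p = 9.5e-27 against bystanders), and bystanders against untreated cells gave log2 fold change 0.045 ± 0.088 SE, adjusted p = 0.667. Mknk2, a kinase of eIF4E, was at 116, 116, 109.6 and 114 CPM in responders and 213, 205, 210.0 and 206 CPM in bystanders, and at 115, 119.6, 109 and 110.4 CPM in the LPS pool, against 154, 152, 163 and 153 CPM in untreated cells, lowest in responders and the pool and highest in bystanders (log2 fold change -0.87 ± 0.027 SE, adjusted p = 4.38e-37 for responders over bystanders). Larp1, which binds the cap of ribosomal protein mRNAs, was higher in responders (log2 fold change 0.54 ± 0.021 SE, adjusted p = 2.26e-32), as was Cyfip1, an eIF4E-binding protein also in the WAVE actin complex (log2 fold change 0.95 ± 0.022 SE, adjusted p = 4.69e-44), both under all 4 scalings. Of 11 genes of mTORC1 and its input, 3 were higher and 7 lower in responders than in bystanders. In the pool 1 was higher and 9 lower than in untreated cells. With library totals these were 1 and 8 for responders and 0 and 10 for the pool. The list mixes parts of the complex with genes that act on it in either direction, so its counts give no direction for mTORC1. Its log2 fold changes for responders against bystanders ran from -2.60 to 1.07. Rptor, for the raptor subunit, was at 44.4, 41.8, 43.6 and 43.1 CPM in responders and 66.6, 65.4, 67.4 and 67.3 CPM in bystanders, and at 43.8, 46.9, 48.9 and 46.1 CPM in the LPS pool, against 64.3, 63.1, 61.0 and 64.8 CPM in untreated cells, and was lower in responders than in bystanders (log2 fold change -0.63 ± 0.038 SE, adjusted p = 7.97e-23) under all 4 scalings.

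Of 7 initiation and recycling factors with other symbols, 2 were higher and 3 lower in responders than in bystanders (1 and 5 with library totals), and Denr rose most. Denr, for a protein that recycles small subunits and allows reinitiation together with MCTS1, was at 678, 671, 656 and 675 CPM in responders and 211, 216, 224 and 231 CPM in bystanders, and at 626, 618, 623 and 638 CPM in the LPS pool, against 180.2, 180.4, 178 and 181 CPM in untreated cells. It was 3.03-fold higher in responders (log2 fold change 1.60 ± 0.022 SE, adjusted p = 1.02e-56) and 3.48-fold higher in the pool than in untreated cells (log2 fold change 1.80 ± 0.022 SE, adjusted p = 1.6e-59), under all 4 scalings, and 0.84% of its exon length overlaps another gene. Its partner Mcts1, at 37.6, 40.7, 39.1 and 40.3 CPM in responders and 43.7, 41.6, 42.8 and 40.9 CPM in bystanders, and at 39.5, 36.7, 40.6 and 42.9 CPM in the LPS pool, against 39.6, 43.7, 41.3 and 38.8 CPM in untreated cells, did not pass in either comparison with TMM scaling (log2 fold change -0.10 ± 0.046 SE, adjusted p = 0.051 for responders against bystanders), and was lower in both with library totals, at -0.29 and -0.37. Of 12 elongation and termination factors 7 were higher and 1 lower in responders than in bystanders, but 3 were higher and 4 lower with library totals. The gene lower with TMM scaling was Eef2k, for the kinase that inhibits elongation factor 2, at 7.32, 6.57, 5.92 and 6.11 CPM in responders and 13.8, 12.002, 12.1 and 11.97 CPM in bystanders, and at 8.09, 8.31, 9.37 and 8.80 CPM in the LPS pool, against 21.6, 21.0, 20.6 and 20.4 CPM in untreated cells. Responders were below bystanders under all 4 scalings (log2 fold change -0.94 ± 0.085 SE, adjusted p = 2.83e-15).

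**Figure D5:**
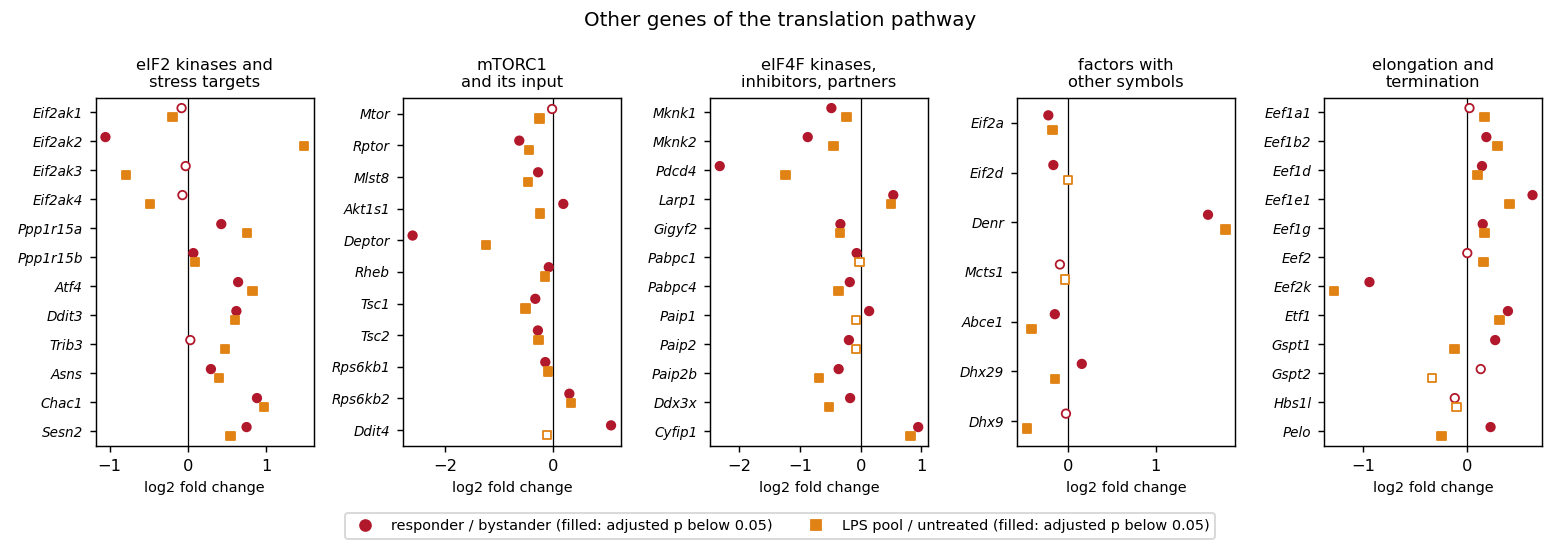
Log2 fold changes (edgeR, TMM scaling) of 54 other genes of the translation pathway in 5 lists, responders over bystanders (circles) and LPS pool over untreated (squares); filled symbols have an adjusted p under 0.05. Denr lies at 1.60 and 1.80, while its partner Mcts1 is not called in either, and Pdcd4 lies at -2.32 and -1.24.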

How the data were processed

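The authors deposited raw counts per gene for all 16 libraries in 1 table, as whole numbers that were not normalised. Per the submitters' processing notes, featureCounts 2.1.1 and HISAT2 2.2.2 were among the tools, with fastp 1.1.0 and cutadapt 3.7, on the GRCm38 (mm10) build; the sources used here do not give strand or multimapping settings. Gene IDs were matched to symbols for 25275 of 27179 rows, the other 1904 holding 0.399% of the counts, and 3 empty columns were ignored.

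The members and gene lists were chosen with earlier results of these data known. Counts were fitted with edgeR 4.0.16 (R 4.3.3; filterByExpr, TMM factors, robust quasi-likelihood F test, all 16 libraries and 4 groups in 1 model, no covariate), with Benjamini-Hochberg adjustment over 12589 genes and a threshold of 0.05. CPM are TMM-scaled unless library totals are named. Library totals of 15287344 to 25193162 counts set the depth, and the spread between replicates includes counting error. Replicate pairs differed beyond sampling noise in all 24 pairs (chi-square per degree of freedom 1.62 to 3.13), so none was merged.

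Ratios of 2 genes used library CPM and an exact two-sided permutation test, with 33 tests adjusted together. Members given in every library were, per comparison, up to 4 with the highest and 4 with the lowest fold change among those called without overlap, those called in opposite directions against untreated cells, and Eif4e, Eif4ebp1, Eif4a1, Eif4g1, Eif2s1 and Eif5a; other genes named by range, and the genes of the lists picked as examples, were chosen after their values were seen. Alternatives were DESeq2 1.42.0, other scalings and filters, fits of the compared groups alone, a replicate block and left-out libraries. Same-numbered libraries deviated together in every pair only for responders with untreated cells (r 0.169 to 0.605) and bystanders with the LPS pool (r 0.391 to 0.475), a hint from the data that the labels do not state. Scripts were tested on simulated counts. Promoters and gene positions are from RefSeq, and exon lengths, overlaps and near-identical copies from GENCODE M21. The summed level of the lymphocyte marker list is not reported here.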

Additional observations from a re-analysis of the deposited data

Results flagged for a closer look

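Among 108 groups of 4 libraries of the 27 members given in every library, 10 held a library whose gap to the nearest other exceeded Dixon's 95% critical share of the range, where chance gives about 1 in 20. Eif1 was at 447.6 CPM in responder replicate 2, against 426.7 to 429.6 CPM in the others, and at 430.3 CPM in bystander replicate 2, against 412.4 to 414.8 CPM. Eif4enif1, for the eIF4E transporter, was at 50.3 CPM in LPS pool replicate 4, against 59.0 to 60.6 CPM, and at 55.8 CPM in responder replicate 2, against 56.6 to 56.7 CPM. Eif1a was at 203.7 CPM in LPS pool replicate 3 against 210.6 to 210.7 CPM, and Eif4a1 at 1631 CPM in LPS pool replicate 4 against 1586 to 1592 CPM. Eif2b1 was at 62.6 CPM in bystander replicate 4 against 65.7 to 66.1 CPM, and Eif4ebp3 at 6.52 CPM in the same library against 5.44 to 5.52 CPM. In untreated cells Eif2s2 was at 300.7 CPM in replicate 2 against 291.1 to 291.5 CPM, and Eif2s3x at 146.6 CPM in replicate 3 against 140.7 to 141.5 CPM.

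The change against untreated cells differed between responders and bystanders, and had opposite signs with TMM scaling, for 5 members. The tested difference (edgeR, log2, responders minus bystanders) was 0.54 for Eif4g2, 0.41 for Eif3g, 0.36 for Eif5a, 0.29 for Eif1ax and 0.29 for Eif2s1. The 5 members were picked for these opposite signs, which fixed the direction of the difference in advance. With library totals both changes were below 0 for all 5.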

How the results depend on the processing

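By construction, library totals differ from TMM scaling by the TMM factors alone. With library totals, members higher and lower came to 17 and 24 for responders against bystanders, 5 and 35 for the LPS pool, 3 and 39 for responders and 3 and 37 for bystanders, each against untreated cells, and 11 were higher in the sorted mean than in the pool. Upper quartile factors gave 15 and 19 for the LPS pool, 14 and 19 for responders and 5 and 32 for bystanders against untreated cells. The counts of all genes under these scalings stand beside the members' counts in the results above.

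With library totals the log2 change of the LPS pool against untreated cells turned negative for Eif1ax (-0.16), Eif2b3 (-0.22), Eif2b5 (-0.27), Eif2s1 (-0.20), Eif3c (-0.059), Eif3e (-0.20), Eif3g (-0.17), Eif3h (-0.087), Eif3i (-0.10), Eif3k (-0.019), Eif3m (-0.22), Eif4e2 (-0.017), Eif4ebp1 (-0.26), Eif4g2 (-0.13) and Eif5a (-0.14). For bystanders against untreated cells it did so for Eif1b (-0.072), Eif2b2 (-0.10), Eif3c (-0.11), Eif3k (-0.048), Eif4a1 (-0.085), Eif4g3 (-0.080) and Eif5b (-0.13). For responders against untreated cells it did so for Eif1 (-0.048), Eif1a (-0.28), Eif1ax (-0.21), Eif1b (-0.30), Eif2s1 (-0.20), Eif3c (-0.070), Eif3d (-0.063), Eif3e (-0.23), Eif3g (-0.25), Eif3h (-0.17), Eif3i (-0.20), Eif3k (-0.14), Eif3m (-0.26), Eif4e (-0.28), Eif4e2 (-0.048), Eif4g2 (-0.046), Eif5a (-0.19) and Eif5b (-0.045), and for responders against bystanders for Eif1 (-0.14), Eif2b5 (-0.069), Eif3b (-0.051), Eif3e (-0.062), Eif3i (-0.017), Eif3k (-0.092), Eif3m (-0.063), Eif4e (-0.094) and Eif4g1 (-0.089). Upper quartile factors turned Eif2b3 (-0.0035), Eif2b5 (-0.048), Eif3m (-0.0076) and Eif4ebp1 (-0.046) in the LPS pool, Eif1a (-0.026), Eif1b (-0.051), Eif3g (-0.0035), Eif3m (-0.012) and Eif4e (-0.033) in responders, and Eif2b2 (-0.015), Eif3c (-0.016) and Eif5b (-0.045) in bystanders.

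No other setting turned a direction among the results compared. Leaving out each library in turn gave 27 to 28 higher and 8 to 10 lower for responders against bystanders, 21 to 25 and 11 to 13 for the LPS pool, 22 to 24 and 12 for responders and 10 to 13 and 21 to 22 for bystanders against untreated cells, and 4 to 5 and 25 to 27 for the sorted mean. With the replicate number as a block, responders against bystanders gave 28 higher and 9 lower, the sorted mean 5 and 25, and the other counts did not move. The block ended 1 call, Eif4a2 in responders against bystanders (-0.07, adjusted p = 0.0548). Over all leave-one-out fits 48 single-gene results lost their call, 12 of them Eif4a2 and 15 Eif4a3 in responders against bystanders, and 2520 single-gene and ratio results did not. DESeq2's test ended 3 calls, no filter 7, groups fitted alone 2, and leaving out the 6 libraries with neural transcripts 12 (Eif4ebp2 in responders against bystanders among them), where the Eif1 to Eif1b difference moved to 0.03 for responders against bystanders and 0.26 for bystanders against untreated cells. Depth limits Eif4ebp3, Eif3j2 and Eif4e3 most.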
